A study of Mus musculus with 16 samples.

Results

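The NFAT gene family was followed in mouse bone-marrow-derived macrophages: Nfat5 and the 4 calcineurin-regulated genes Nfatc1, Nfatc2, Nfatc3 and Nfatc4. Members were the probe sets whose platform symbol is one of these names, and each gene had 1 probe set, so 5 of the 19937 genes with a symbol on the array are described. The macrophages came from the 129sv background, and total RNA was hybridised to 16 one-colour Affymetrix arrays, 4 per group. The groups were NFAT5 knockout cells stimulated with lipopolysaccharide (LPS, a bacterial cell wall component), wild-type cells stimulated with LPS, unstimulated knockout cells and unstimulated wild-type cells. The labels give no LPS dose, no time of exposure, no deleted part of Nfat5 and no number of animals behind the arrays of a group. P-values therefore measure the spread between these arrays, which may be technical in part.

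NFAT proteins are transcription factors with a DNA-binding domain related to that of the Rel and NF-kB proteins. NFATc1 to NFATc4 are held phosphorylated in the cytoplasm, and a rise in calcium activates calmodulin and the phosphatase calcineurin, which strips the phosphates and lets them enter the nucleus. NFAT5, also called TonEBP, lacks the calcineurin docking region, responds to high salt, and is also induced in macrophages by Toll-like receptors through NF-kB. In the myeloid lineage NFATc1 is best known as the main switch of osteoclast formation, and NFATc2 as a calcium-driven regulator of cytokine genes.

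The stretches before the annotated starts of Nfat5 and Nfatc2 are shown because these genes had the only call of a rise and the largest fall with LPS among the family. They are the 250 bases before each start in RefSeq on GRCm38.p6, 5′ to 3′ on the gene's strand. Nfat5 lies on the plus strand at chr8:107293220-107293469. Nfatc2 lies on the minus strand and has 2 annotated starts that are 11292 bases apart, with stretches at chr2:168601658-168601907 for start 1 and chr2:168590366-168590615 for start 2. Capitals mark the core shared by NFAT sites, GGAAA, read on either strand (TTTCC on the other).
Nfat5: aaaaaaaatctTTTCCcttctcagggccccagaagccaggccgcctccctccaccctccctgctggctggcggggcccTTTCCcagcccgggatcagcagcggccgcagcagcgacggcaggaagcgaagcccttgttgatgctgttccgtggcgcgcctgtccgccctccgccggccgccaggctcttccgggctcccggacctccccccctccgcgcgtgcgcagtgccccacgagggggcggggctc
Nfatc2 start 1: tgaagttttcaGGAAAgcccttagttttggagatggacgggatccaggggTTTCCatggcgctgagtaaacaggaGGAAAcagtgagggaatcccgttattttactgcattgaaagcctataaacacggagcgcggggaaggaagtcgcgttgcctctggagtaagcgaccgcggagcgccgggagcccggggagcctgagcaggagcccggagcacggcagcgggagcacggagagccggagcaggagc
Nfatc2 start 2: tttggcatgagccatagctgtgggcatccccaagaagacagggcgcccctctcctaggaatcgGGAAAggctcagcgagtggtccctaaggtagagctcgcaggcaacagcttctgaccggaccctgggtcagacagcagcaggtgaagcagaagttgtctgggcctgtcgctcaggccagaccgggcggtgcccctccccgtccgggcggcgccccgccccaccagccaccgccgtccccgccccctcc
The Nfat5 stretch held 2 such cores, the stretch before Nfatc2 start 1 held 3, and that before start 2 held 1. Of 32817 stretches of the same length in the RefSeq table, 55.6% held at least 1 core. The longer letters TGGAAA, the core of the tonicity-responsive element that NFAT5 binds, contain GGAAA and were found once, before Nfatc2 start 1, against 18.6% of all stretches. The kappa B element bound by NF-kB was in none of the 3 stretches and in 7.25% of all stretches. These are matches of letters only and no binding was measured.

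The arrays carry 34760 probe sets, and array medians lay between 6.76 and 6.86 on the deposited log2 scale. Of the marker lists, 7 macrophage genes averaged between 10.07 and 13.62 over the 16 arrays, 5 osteoclast genes between 6.10 and 9.02, 5 stromal genes between 6.16 and 8.60, 4 T cell genes between 5.12 and 7.30 and genes of other tissues between 4.62 and 7.25. Of the 7 macrophage genes, 2 rose and 2 fell with LPS in knockout cells and 3 fell in wild-type cells. Of all genes, 24.7% were called in knockout and 30.8% in wild-type cells. In knockout cells Adgre1 and Fcgr1 rose (0.28 and 0.51), and Cd68 and Mertk fell (-0.42 and -1.15). In wild-type cells Cd68, Csf1r and Mertk fell (-0.57, -0.49 and -1.62). Mertk, a receptor for dying cells, was higher in LPS-treated knockout than in LPS-treated wild-type cells (0.79, limma adjusted p = 0.00891). The stromal list's Pdgfrb, a growth factor receptor, rose by 3.16 in knockout and 3.88 in wild-type cells. It was lower in LPS-treated knockout than in LPS-treated wild-type cells (-0.90). The rest of that list, Col1a1, Col1a2, Col3a1 and Dcn, was called in no comparison. Their LPS changes were -0.08, 0.11, -0.03 and 0.17 in knockout cells and 0.12, 0.15, 0.26 and 0.11 in wild-type cells. The part of these shifts in the NFAT values was not tested. Array 4 of the LPS-treated knockout, unstimulated knockout and LPS-treated wild-type groups stood apart on the second principal component, with scores of -31.4, -24.4 and -18.5, whereas unstimulated wild-type array 4, at -6.42, lay within the range of the others. Xist exceeded the Y-linked gene Kdm5d on all 8 wild-type arrays but on only 2 of the 8 knockout arrays, those numbered 4, so sex-linked expression moved with genotype. Loss of NFAT5 was checked on Slc6a12, the betaine transporter that NFAT5 drives, whose level was 6.96 ± 0.293 in LPS-treated knockout cells and 10.30 ± 0.238 in LPS-treated wild-type cells (SD, n = 4 each).

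Nfat5 rose with LPS in wild-type macrophages and was lower in knockout than in wild-type cells once both had received LPS. Its log2 levels were 9.29, 9.29, 9.12 and 8.67 on the LPS-treated knockout arrays, against 9.95, 10.56, 9.97 and 9.80 on the LPS-treated wild-type arrays. Every LPS-treated wild-type array lay above every other array of the study. The levels were 8.93, 9.03, 9.20 and 8.99 on the unstimulated knockout arrays, against 9.15, 9.41, 9.34 and 9.67 on the unstimulated wild-type arrays, and these groups overlapped by 1 knockout array and 1 wild-type array. The probe set still gave a level between 8.67 and 9.29 on every knockout array, above the array medians. The labels do not say which exons its probes read, and a signal from transcripts that lack the deleted part cannot be told apart from another source of signal.

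The rise of Nfat5 with LPS in wild-type cells was 0.68 ± 0.162 on the log2 scale (SE, 1.60-fold, limma adjusted p = 0.003), and the groups did not overlap (exact permutation p = 0.0286, the smallest that 4 against 4 arrays allow, two-sided). In knockout cells the change with LPS was 0.05 and was not called (adjusted p = 0.889). LPS-treated knockout cells were 1.97-fold below LPS-treated wild-type cells (log2 difference -0.98 ± 0.162, limma adjusted p = 0.00169). Without LPS the difference was -0.36 and was not called over all genes (limma adjusted p = 0.602, unadjusted p = 0.0406, exact permutation p = 0.0571). The difference between the genotypes in the LPS change, -0.62 ± 0.228, also missed the threshold (limma adjusted p = 0.277), so a smaller response in the knockout was not shown. Among only the 10 arrays with Xist above Kdm5d, which leave 1 knockout array per treatment, the knockout difference under LPS was -1.40 (adjusted p = 0.0456).

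**Figure D1:**
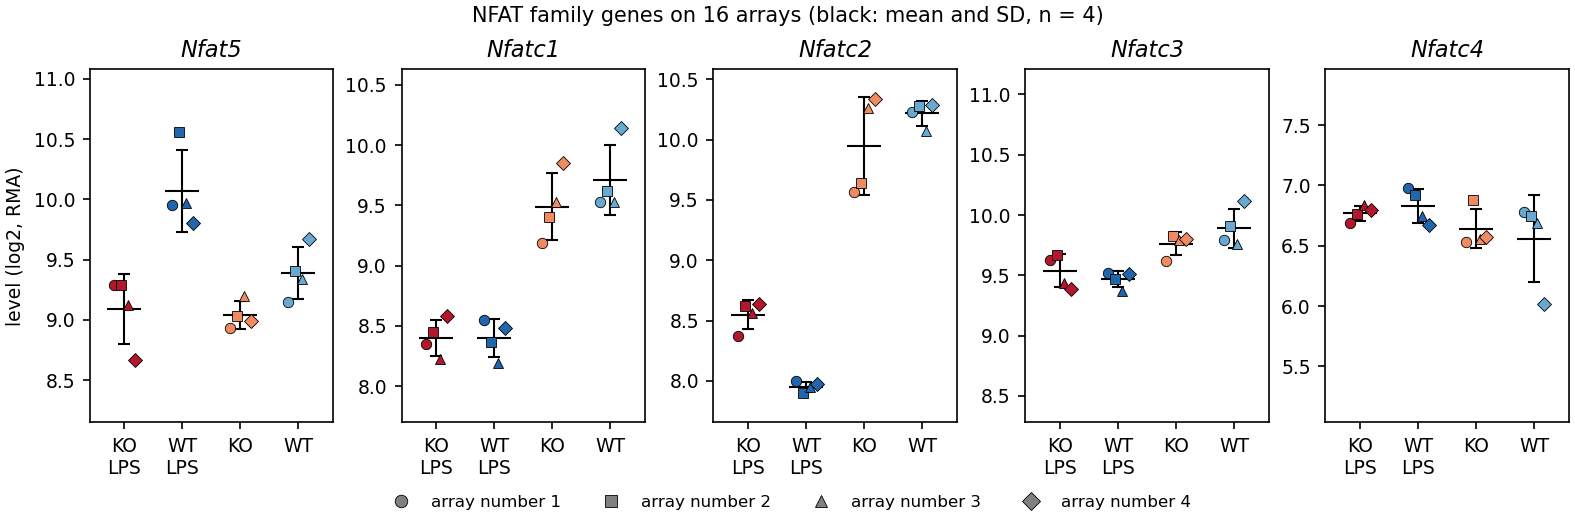
Log2 level of each of the 5 NFAT genes (vertical axes) on every array, for LPS-treated knockout, LPS-treated wild-type, unstimulated knockout and unstimulated wild-type macrophages; points are arrays and bars show the mean and SD of 4. Nfat5 stands highest in LPS-treated wild-type cells (9.80 to 10.56), and Nfatc2 lowest there (7.90 to 8.0).

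Among the calcineurin-regulated genes, LPS lowered Nfatc2 most, then Nfatc1, in both genotypes, and Nfatc3 in wild-type cells. Counting all 5 genes, 1 rose and 3 fell with LPS in wild-type cells, where 30.8% of all genes were called (14.0% higher and 16.8% lower). In knockout cells 2 of 5 fell, Nfatc1 and Nfatc2, where 24.7% of all genes were called (12% higher and 12.7% lower). The median LPS change of the 5 genes was -0.43 in wild-type cells, against 0.06 over all genes, and -0.22 in knockout cells, against 0.01 over all genes. In such bulk RNA, fewer cells of a type and less RNA per cell cannot be told apart.

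Nfatc2, the family member also called NFAT1, had levels of 8.37, 8.62, 8.56 and 8.64 on the LPS-treated knockout arrays, against 8.0, 7.90, 7.95 and 7.97 on the LPS-treated wild-type arrays. All 4 LPS-treated knockout arrays lay above all 4 LPS-treated wild-type arrays. Its levels were 9.57, 9.64, 10.26 and 10.34 on the unstimulated knockout arrays, against 10.23, 10.28, 10.07 and 10.29 on the unstimulated wild-type arrays. Without LPS the genotypes overlapped, and the knockout arrays numbered 1 and 2 lay lowest. Every LPS-treated array lay below every unstimulated array.

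The fall of Nfatc2 with LPS was 4.81-fold in wild-type cells (log2 change -2.27 ± 0.143, limma adjusted p = 6.03e-10) and 2.65-fold in knockout cells (-1.41, adjusted p = 4.14e-07). The test of the difference between these changes gave 0.86 ± 0.202, a 1.82-fold smaller fall in knockout cells (limma adjusted p = 0.0431). LPS-treated knockout cells were 1.51-fold above LPS-treated wild-type cells (0.59, adjusted p = 0.0267), whereas the difference without LPS was -0.27 and was not called (adjusted p = 0.696). Both calls were close to the threshold. The genotype call under LPS was lost without LPS-treated wild-type array 1, 2 or 3 or LPS-treated knockout array 2, 3 or 4 (log2 differences of 0.56 to 0.65 over all leave-outs, adjusted p up to 0.0925), with the arrays numbered 4 left out (0.57, adjusted p = 0.063) and among the 10 arrays with Xist above Kdm5d (0.68, adjusted p = 0.0559). The difference in LPS change was kept only without unstimulated knockout array 3 or 4 and lost in the other 14 leave-outs (0.73 to 0.99, adjusted p 0.0189 to 0.0982), without the arrays numbered 4 (0.94, adjusted p = 0.0617) and among the Xist arrays (0.56, adjusted p = 0.541). T cells also use Nfatc2. Of 4 measured T cell genes, limma called 1 lower with LPS in wild-type cells, Cd4 at -0.61. There Cd3d, Cd3e and Cd3g changed by 0.15, 0.19 and 0.01 and were not called. In knockout cells limma called 0 of the 4 with LPS, and 0 had an unadjusted p under 0.05. Of all genes, 30.8% were called in wild-type and 24.7% in knockout cells. The part of such cells in the Nfatc2 values was not tested.

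Nfatc1 had levels of 8.35, 8.45, 8.23 and 8.58 on the LPS-treated knockout arrays, against 9.19, 9.40, 9.53 and 9.85 on the unstimulated knockout arrays. On the wild-type arrays they were 8.55, 8.37, 8.19 and 8.48 with LPS, against 9.53, 9.62, 9.53 and 10.14 without it. In both genotypes every LPS-treated array lay below every unstimulated one, and the genotypes overlapped under either condition. The fall was 2.13-fold in knockout cells (limma log2 change -1.09, adjusted p = 1.45e-05) and 2.48-fold in wild-type cells (-1.31 ± 0.148, adjusted p = 1.21e-06). The difference between these falls was 0.22 ± 0.21 (limma adjusted p = 0.823). Knockout minus wild type was 0.00 with LPS (adjusted p = 0.998) and -0.22 without it (adjusted p = 0.806).

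Nfatc3, the NFAT protein of thymocytes and many other cells, moved least among the family members that were called. Its levels were 9.63, 9.67, 9.44 and 9.39 on the LPS-treated knockout arrays, against 9.62, 9.83, 9.79 and 9.80 on the unstimulated knockout arrays, and these groups overlapped. In wild-type cells they were 9.52, 9.47, 9.37 and 9.51 with LPS, against 9.79, 9.91, 9.76 and 10.12 without it, with no overlap. The change was -0.43 ± 0.0958 in wild-type cells (1.34-fold lower, limma adjusted p = 0.00178) and -0.22 in knockout cells, which was not called (adjusted p = 0.114). The difference between them, 0.21, was not called either (adjusted p = 0.698), so a change limited to wild-type cells was not shown.

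Nfatc4, the member best known from heart, vessels and neurons, lay between 6.02 and 6.98 on the 16 arrays, inside the range over which genes of other tissues averaged. It therefore cannot be told apart from a gene that is not expressed. Its LPS changes of 0.14 in knockout and 0.27 in wild-type cells were not called (limma adjusted p = 0.603 and 0.164).

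**Figure D2:**
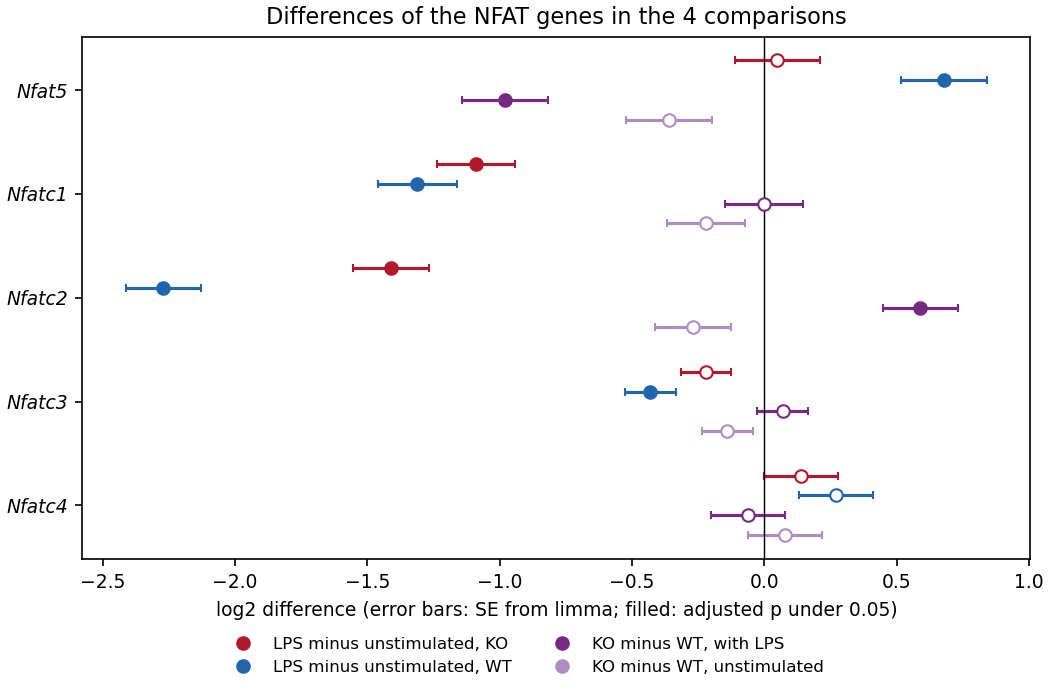
Log2 difference of each NFAT gene (horizontal axis, bars show the SE, filled points passed adjusted p under 0.05) in 4 comparisons: LPS against unstimulated in knockout and in wild type, and knockout against wild type with and without LPS. Nfatc2 falls by 2.27 with LPS in wild type, and Nfat5 has the -0.98 difference between knockout and wild type under LPS.

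Between genotypes, the counts for the family were small. Under LPS 1 of 5 genes was lower in knockout cells, Nfat5, and 1 was higher, Nfatc2, where 3.05% of all genes were called (1.80% higher and 1.26% lower). Without LPS limma called 0 of 5, with 1 at an unadjusted p under 0.05, where 1.0% of all genes were called. For the difference in LPS change 1 of 5 was called, where 1.29% of all genes were called (0.988% higher and 0.301% lower). In the order of group means, Nfat5 ran from LPS-treated wild type down through unstimulated wild type and LPS-treated knockout to unstimulated knockout, and only the step from LPS-treated wild type to the next group was free of overlap. Nfatc2 ran from unstimulated wild type through unstimulated knockout, with which it overlapped, and LPS-treated knockout down to LPS-treated wild type.

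Calcineurin, the phosphatase that activates NFATc1 to NFATc4, changed unevenly with LPS. Of 5 measured subunit genes, 2 rose and 1 fell in each genotype, where 24.7% of all genes were called in knockout and 30.8% in wild-type cells. Ppp3ca, a catalytic subunit, had levels of 10.34, 10.16, 10.17 and 10.17 in LPS-treated knockout cells, against 9.62, 9.58, 9.89 and 10.04 in LPS-treated wild-type cells. The groups did not overlap, and both lay below the unstimulated arrays, which spanned 10.65 to 10.91 in knockout and 10.65 to 10.96 in wild-type cells. Its fall with LPS was 1.02 on the log2 scale in wild-type cells (2.03-fold, limma adjusted p = 5.65e-07), and the change in knockout cells was -0.58 (adjusted p = 0.000445). The difference between these changes was not called, so a smaller fall in the knockout was not shown. The knockout difference under LPS was 0.43 (adjusted p = 0.0372), and with a term for sex-linked transcripts it was 0.47 but not called (adjusted p = 0.0861). That call was also lost without LPS-treated wild-type array 1 or 2 or any single LPS-treated knockout array (0.36 to 0.45, limma adjusted p 0.0593 to 0.169).

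Ppp3cc, another catalytic subunit, moved the other way. It had levels of 8.57, 8.64, 8.49 and 8.03 in LPS-treated knockout cells, against 9.50, 9.89, 9.25 and 8.81 in LPS-treated wild-type cells. Again the groups did not overlap. Its rise with LPS was 0.77 in knockout cells (limma adjusted p = 0.00397) and 1.5 in wild-type cells (2.83-fold, adjusted p = 3.53e-06). Among the arrays with Xist above Kdm5d the knockout change was 0.26 and not called (adjusted p = 0.759). The difference between the rises over all arrays was -0.73 and was not called (adjusted p = 0.259), although the knockout difference under LPS was (-0.93, adjusted p = 0.00745). Ppp3cb, the remaining catalytic subunit that changed, rose by 0.41 in knockout cells (adjusted p = 0.0016) and by 0.24 in wild-type cells (adjusted p = 0.0443). The wild-type call was lost without any of 5 single arrays, unstimulated 1 or 3 and LPS-treated 1, 2 or 3 (0.17 to 0.25), and with arrays centred on their medians (0.22, limma adjusted p = 0.0747). The regulatory subunit Ppp3r1 had changes of 0.04 in both genotypes, and limma called neither (adjusted p = 0.881 in knockout cells). Ppp3cc and Ppp3cb are named here after their values were seen.

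Rcan1, an inhibitor of calcineurin whose short transcript is itself driven by NFAT, had levels of 8.89, 8.82, 8.36 and 8.64 in LPS-treated knockout cells, against 8.90, 9.18, 8.66 and 8.68 in unstimulated knockout cells. In wild-type cells they were 8.63, 8.48, 8.38 and 8.21 with LPS, against 8.75, 9.10, 8.63 and 8.82 without it, and no LPS-treated array exceeded any unstimulated one. The change was -0.18 in knockout cells (limma adjusted p = 0.47) and -0.40 in wild-type cells (adjusted p = 0.0392). The wild-type call was lost without unstimulated array 2 or 4 or LPS-treated array 2, 3 or 4 (-0.31 to -0.42, limma adjusted p up to 0.138) and without the arrays numbered 4 (-0.33, adjusted p = 0.18). Among 9 measured inhibitors and anchors, 2 fell and 0 rose in each genotype, with 4 at an unadjusted p under 0.05 in wild-type and 3 in knockout cells. Beside these counts, 24.7% of all genes were called in knockout and 30.8% in wild-type cells, so the list does not stand out. Rcan3, a relative of Rcan1 and the member of this group with the largest change, fell in both (-0.58 in knockout and -0.87 in wild type) and is named after its values were seen.

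**Figure D3:**
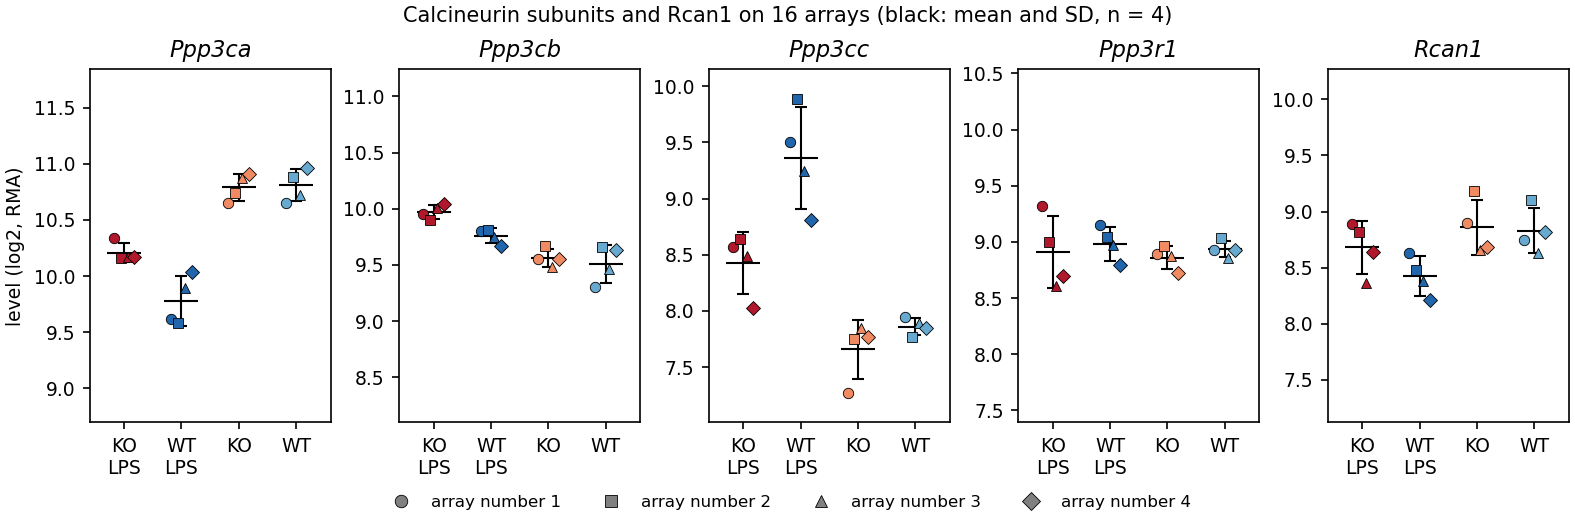
Log2 level (vertical axes) of calcineurin subunit genes and Rcan1 on every array of the 4 groups, with mean and SD of 4. Under LPS, Ppp3ca is higher (10.16 to 10.34 against 9.58 to 10.04) and Ppp3cc lower (8.03 to 8.64 against 8.81 to 9.89) in knockout than in wild-type cells.

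The genes around the family were read from 11 lists with 100 of 107 genes measured. With LPS, 21 rose and 23 fell in knockout cells and 28 rose and 31 fell in wild-type cells, where 24.7% of all genes were called in knockout and 30.8% in wild-type cells. The counts for single lists that follow are to be read beside these shares. The median change of the 100 genes was -0.05 in knockout cells, beside 0.01 over all genes, and 0.04 in wild-type cells, beside 0.06. In the calcium entry and release list, 1 rose and 3 fell of 9 in knockout cells, and 2 rose and 6 fell in wild-type cells. The test of the difference in LPS change called 1 of these 9 genes. Stim2, a sensor of calcium in the endoplasmic reticulum, had levels of 10.07, 10.02, 9.97 and 9.86 in LPS-treated knockout cells, against 10.62, 10.67, 10.73 and 10.55 in LPS-treated wild-type cells. Its rise with LPS was 0.92 in knockout and 1.23 in wild-type cells, and the difference between these rises was not called. The knockout difference under LPS was -0.66 (limma adjusted p = 0.000856). Without LPS the means of Stim2 were 9.06 in knockout and 9.42 in wild-type cells, a difference that was not called. The inositol trisphosphate receptors Itpr2 and Itpr3, which release stored calcium, fell in both genotypes (Itpr2 by 0.79 in knockout and 0.96 in wild type, Itpr3 by 1.23 in knockout and 1.06 in wild type). Both were named after their values were seen.

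Of 8 receptors and kinases that feed calcium signals in myeloid cells, 2 rose and 2 fell with LPS in knockout cells, and 2 rose and 4 fell in wild-type cells. Syk, the kinase under immunoreceptor adaptors, rose by 1.15 in knockout and 1.25 in wild-type cells. Cd14, the LPS co-receptor that feeds calcium signals to NFAT in dendritic cells, had levels of 10.05, 10.81, 10.62 and 10.86 in unstimulated knockout cells, against 11.78, 11.82, 11.69 and 11.85 in unstimulated wild-type cells. It was lower in the knockout without LPS (-1.20, limma adjusted p = 5.13e-05). Its rise with LPS was 2.03 in knockout and 1.04 in wild-type cells, a difference of 0.99 (adjusted p = 0.016). With LPS the means of Cd14 were 12.61 in knockout and 12.82 in wild-type cells, and the genotype difference was not called. The larger rise in the knockout thus began from a lower level and did not end at a higher one.

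Among 11 kinases and scaffolds that keep NFAT out of the nucleus, 3 rose and 3 fell with LPS in knockout cells, and 4 rose and 3 fell in wild-type cells. Lrrk2, a kinase that retains NFAT in the cytoplasm through the NRON complex, had levels of 7.85, 7.85, 7.25 and 6.83 in LPS-treated knockout cells, against 8.77, 9.34, 8.79 and 8.38 in LPS-treated wild-type cells. The groups did not overlap, with a difference of -1.38 (limma adjusted p = 0.0019). Its change with LPS was 0.12 in knockout and 1.40 in wild-type cells, and the difference between these changes missed the threshold (-1.28, adjusted p = 0.0678). Dyrk1b, a kinase of the family that primes NFAT for export, fell by 1.41 in both genotypes and is named after its values were seen.

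NFAT partners on DNA included both directions: of 14, 3 rose and 7 fell with LPS in knockout cells, and 5 rose and 6 fell in wild-type cells. Batf, an AP-1 family partner, rose by 2.20 in knockout and 2.74 in wild-type cells, and Irf8, a myeloid interferon regulatory factor, fell by 1.36 in knockout and 1.64 in wild-type cells. Fosl2, an AP-1 subunit, had levels of 9.12, 8.95, 8.95 and 9.09 in LPS-treated knockout cells, against 10.67, 10.63, 10.01 and 10.29 in LPS-treated wild-type cells. It changed by 0.03 with LPS in knockout cells and by 1.64 in wild-type cells, and the difference was -1.61 (limma adjusted p = 0.000146). Irf4, which pairs with NFAT in lymphocytes, was lower in the knockout without LPS (-0.85, limma adjusted p = 0.0069), a call lost with the term for sex-linked transcripts (-0.60, adjusted p = 0.0956), among the arrays with Xist above Kdm5d (-0.38, adjusted p = 0.438) and in the fit of the compared groups only (adjusted p = 0.0849).

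Of 16 kinases and cofactors that act on NFAT5, 1 rose and 3 fell with LPS in knockout cells, and 2 rose and 8 fell in wild-type cells, beside 24.7% of all genes called in knockout and 30.8% in wild-type cells. Mapk14, the p38 alpha kinase that activates NFAT5 under high salt, had levels of 10.91, 10.73, 10.88 and 10.74 in LPS-treated knockout cells, against 10.26, 9.74, 10.24 and 10.41 in LPS-treated wild-type cells. Here the knockout was higher by 0.65 (limma adjusted p = 0.00495), and the LPS changes of 0.17 in knockout and -0.65 in wild-type cells differed by 0.82 (adjusted p = 0.0245). The difference was not called without unstimulated knockout array 1, unstimulated wild-type array 2 or LPS-treated knockout array 1 or 3 (0.77 to 0.80, limma adjusted p up to 0.0622).

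Among 14 cytokine and early genes that NFAT drives in lymphocytes, 2 rose with LPS in knockout and 4 in wild-type cells. Tnf rose by 3.82 in knockout and 4.01 in wild-type cells. Nr4a1, an orphan nuclear receptor induced by calcium, had levels of 7.45, 7.58, 7.39 and 7.30 in LPS-treated knockout cells, against 8.65, 9.14, 8.47 and 8.22 in LPS-treated wild-type cells. The groups did not overlap, and the LPS changes of 0.24 in knockout and 1.65 in wild-type cells differed by -1.41 (limma adjusted p = 0.00293). Csf2, the gene of the growth factor GM-CSF, had levels of 5.40, 5.23, 5.16 and 5.30 in LPS-treated knockout cells, against 6.43, 8.12, 6.79 and 5.94 in LPS-treated wild-type cells. The difference was -1.55 (limma adjusted p = 0.00388), a call lost in the fit of the compared groups only (limma adjusted p = 0.0503). Every array but LPS-treated wild-type array 2 lay inside the range over which genes of other tissues averaged (4.62 to 7.25), near the floor. The LPS changes of Csf2, 0.38 in knockout and 2.05 in wild-type cells, differed by -1.67 (limma adjusted p = 0.0471). That call was kept only without LPS-treated wild-type array 1, 2 or 4. It was lost in every other single-array leave-out (-1.24 to -1.96 over all leave-outs, adjusted p up to 0.0963) and without the arrays numbered 4 (-1.94, adjusted p = 0.053). Egr2, a zinc finger factor of the calcineurin pathway, was lower in LPS-treated knockout than in LPS-treated wild-type cells (-0.85, adjusted p = 0.00135). Without LPS its means were 7.85 in knockout and 8.36 in wild-type cells, a difference that was not called. Egr2 still rose with LPS in knockout cells (0.86, limma adjusted p = 8.07e-05), and its difference in LPS change was not called.

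The NFATc1 targets of osteoclasts, read in cells that are not osteoclasts, gave 3 rises and 1 fall of 8 with LPS in each genotype. Calcr, the calcitonin receptor, lay between 5.64 and 6.66 on the 16 arrays. That is inside the range over which genes of other tissues averaged (4.62 to 7.25), so its changes are near the floor. Its LPS changes were 0.27 in knockout and 0.78 in wild-type cells, with a difference of -0.52 (limma adjusted p = 0.0396). That call was kept only without unstimulated wild-type array 3 or LPS-treated knockout array 3 and lost in the other 14 leave-outs (-0.46 to -0.57 over all leave-outs, limma adjusted p up to 0.0936), and without the arrays numbered 4 (-0.44, adjusted p = 0.154). The NF-kB genes, which share the Rel domain with the NFAT family, rose with LPS in 4 of 4 cases in each genotype. Nfkb2 rose by 2.03 in knockout and 2.12 in wild-type cells, and Rel by 1.20 in knockout and 1.14 in wild-type cells. Knockout against wild type called none of the 4 NF-kB genes under LPS in limma, where 1 had an unadjusted p under 0.05.

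Over all 11 lists, 2 genes were higher and 9 lower in knockout than in wild-type cells under LPS, against 3.05% of all genes called, and the median of the 100 genes was -0.03, beside -0.01 over all genes. The higher genes were Ppp3ca and Mapk14, and the lower ones were Ppp3cc, Lrrk2, Stim2, Fosl2, Map2k3, Calcr, Csf2, Egr2 and Nr4a1. With the replicate number as a block, since same-numbered arrays of the genotypes deviated together, 17 genes were called. Among the 10 arrays with Xist above Kdm5d, Fosl2 and Lrrk2 remained of the 11. Without LPS, Cd14 and Irf4 were called lower, and the block raised the count to 4. The difference in LPS change was called for 7 of 100 genes, beside 1.29% of all genes, and for 3 to 6 when single arrays were left out.

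**Figure D4:**
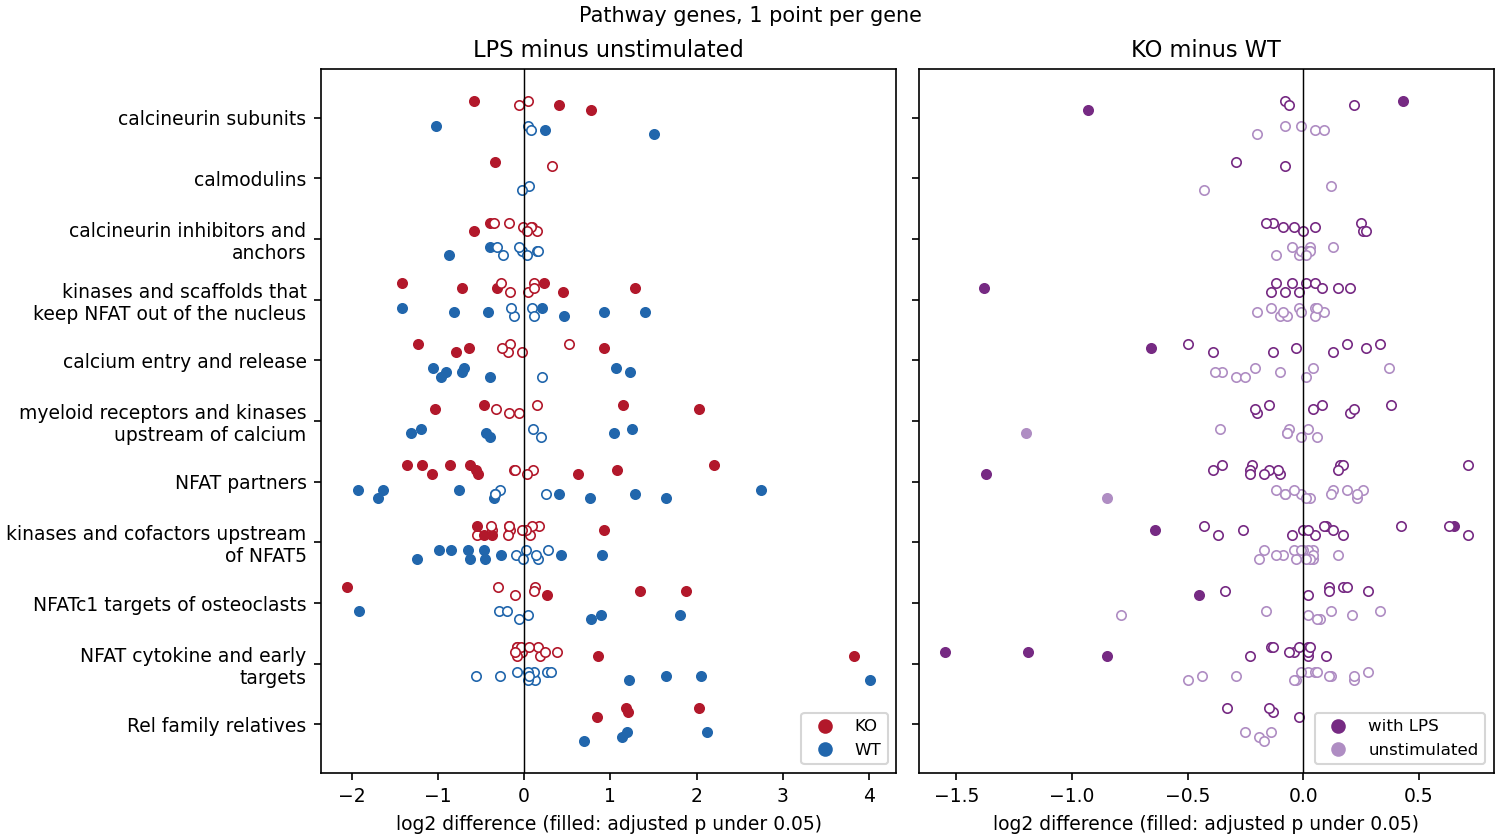
Log2 differences (horizontal axes) for the genes of the 11 lists (vertical axis), with LPS minus unstimulated on the left and knockout minus wild type on the right; each gene is a point, filled where adjusted p was under 0.05. Between genotypes under LPS 11 of 100 genes are called, from Csf2 at -1.55 to Mapk14 at 0.65, and without LPS only Cd14 and Irf4 are called.

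The genes whose pattern over the 16 arrays was most like that of a member were ranked by the root mean square distance between mean-centred log2 levels. Nearest to Nfat5 were Notch2 (0.179), Bcl2l1 (0.199) and Zfp568 (0.211), where the spread of Nfat5 itself was 0.466. Like Nfat5, Notch2 stood highest in LPS-treated wild-type cells, at 11.59, 11.78, 11.78 and 11.79, against 10.82, 10.85, 10.75 and 10.45 in LPS-treated knockout cells. Nearest to Nfatc2 were Pcyt1a (0.202), Fads1 (0.211) and Plekhm1 (0.212), against a spread of 0.965 for Nfatc2. For Nfatc1 they were Chst12 (0.129), Fam117b (0.142) and Rere (0.143), against 0.636, and for Nfatc3 they were Araf (0.0689), Rprd2 (0.0751) and Pcnx3 (0.0751), against 0.201.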

How the data were processed

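The 16 arrays were read from the deposited table of log2 values, which the authors made with RMA, per the submitters' processing notes. Probe sets (34760) were named through the platform annotation: 21640 had 1 gene symbol, 1321 had several and 11799 had none listed. For each of the 19937 genes, the probe set with the highest mean over the arrays was used. Group means were fitted with limma 3.58.1 in R 4.3.3 over all 16 arrays, with Benjamini-Hochberg adjustment over all genes and calls at an adjusted p under 0.05. Fold changes follow from log2 differences. The members and gene lists were chosen with earlier results of these data known. Named were the 5 members, Rcan1, Ppp3ca, Ppp3r1, Slc6a12, the 6 called pathway genes of smallest adjusted p per comparison and the 3 genes most like each called member, leaving out predicted genes and small RNAs. Further genes, among them Mertk, Pdgfrb and Cd4, were named after their values were seen. The rest of the stromal and T cell lists is named beside Pdgfrb and Cd4. Map2k3 is named in a full list of called genes. Same-numbered arrays deviated together between genotypes (correlations 0.16 to 0.442 without LPS and 0.186 to 0.518 with it). Between LPS and no LPS they did not in every pair (-0.0602 to 0.558 in knockout cells, 0.0454 to 0.429 in wild-type cells). Every same-numbered pair between genotypes met the preset minimum correlation of 0.1, and not every pair between LPS and no LPS did. The labels give only a number, so what same-numbered arrays shared is not known. The reported fits have no block, so their p-values take no account of such shared deviations. The block was run as an alternative for every comparison. On simulated data over 19937 genes, a small random set of genes was changed by known amounts in the LPS-treated knockout group. For knockout against wild type with LPS, the test recovered 97% of their 1-unit and 55.2% of their 0.5-unit log2 changes. For the difference in LPS change it recovered 82.1% and 19.4% of the same sizes. The simulated noise was independent between arrays, with no LPS effect, sex-linked difference or deviation shared by same-numbered arrays. These shares therefore need not hold for the real arrays. Alternatives were the mean of all probe sets, a filter on dim genes, centring on array medians, a trended prior, the replicate block, fits of the compared groups only, arrays numbered 1 to 3, a sex-linked term, arrays with Xist above Kdm5d and leaving out each array. The number of arrays limits the precision. RNA amounts, not protein or nuclear entry, were measured.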

Additional observations from a re-analysis of the deposited data

Results flagged for a closer look

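Among the 37 named genes, 10 of 148 groups of 4 arrays held an array far from the others by Dixon's test, where chance flags about 1 in 20 groups. Of the family, Nfatc1 read 10.14 on unstimulated wild-type array 4 (the others 9.53 to 9.62), and Nfatc4 read 6.88 on unstimulated knockout array 2 (6.53 to 6.57) and 6.02 on unstimulated wild-type array 4 (6.69 to 6.78). On LPS-treated knockout arrays, Ppp3ca read 10.34 on array 1 (10.16 to 10.17) and Fam117b 9.36 on array 4 (8.94 to 8.99). On LPS-treated wild-type arrays, Notch2 read 11.59 on array 1 (11.78 to 11.79), Fads1 8.27 on array 2 (8.77 to 8.81) and Pcnx3 9.15 on array 3 (9.33 to 9.36). On unstimulated wild-type arrays, Fosl2 read 8.96 on array 4 (8.68 to 8.71) and Bcl2l1 8.47 on array 1 (8.96 to 9.01).

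The LPS change differed between knockout and wild-type cells, by the limma test of the difference itself, for 10 named genes. Over all genes, 1.29% were called. The count of named genes is not a separate result. Cd14, Mapk14, Fosl2, Nr4a1, Csf2 and Calcr were named because they were called in this comparison. Notch2, Fads1 and Pcyt1a were picked for their likeness to a member over the same arrays. The difference was 0.86 for Nfatc2, 0.99 for Cd14, 0.82 for Mapk14, -1.61 for Fosl2, -1.41 for Nr4a1, -1.67 for Csf2 and -0.52 for Calcr. Of the genes most like a member, it was -0.82 for Notch2, 0.91 for Fads1 and 0.79 for Pcyt1a.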

How the results depend on the processing

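The rise of Nfat5 with LPS in wild-type cells (0.51 to 0.77 over leave-outs) and its lower level in LPS-treated knockout cells (-0.81 to -1.07) kept their calls under every alternative run. Signs turned for differences that were not called: the Nfat5 change with LPS in knockout cells was -0.32 among the Xist arrays (-0.01 to 0.19 over leave-outs), Nfatc1 in knockout without LPS was 0.05 with the sex-linked term and 0.14 among the Xist arrays, and Nfatc1 in knockout with LPS was -0.03 with numbers 1 to 3 (-0.07 to 0.06 over leave-outs). Nfatc2 in knockout without LPS was 0.12 and Nfatc3 in knockout with LPS -0.07 among the Xist arrays. Nfatc4 in knockout without LPS was -0.08 with numbers 1 to 3 (-0.10 to 0.15 over leave-outs), and its difference in LPS change was -0.21 to 0.04. Members called under LPS between genotypes numbered 1 with numbers 1 to 3 and among the Xist arrays (1 to 2 over leave-outs), against 2; for the difference in LPS change 0 under both (0 to 1), against 1. Pathway calls were 20 for LPS in knockout among the Xist arrays (44 in the reported fit); for knockout without LPS 4 with the replicate block, 1 with the compared groups only and 1 among the Xist arrays (2); for knockout with LPS 17 with the block and 2 among the Xist arrays (11); for the difference 11 with the block, 4 with numbers 1 to 3 and 0 among the Xist arrays (3 to 6 over leave-outs, 7). Calls over all genes were 1962 for LPS in knockout among the Xist arrays (4919). For knockout without LPS they were 327 with the block, 91 with the compared groups, 359 with the sex-linked term, 58 among the Xist arrays and 116 to 209 over leave-outs (200). For knockout with LPS they were 950 with the block, 89 among the Xist arrays and 308 to 606 over leave-outs (609). For the difference they were 451 with the block, 153 with numbers 1 to 3, 4 among the Xist arrays and 133 to 271 over leave-outs (257). The Xist arrays leave 1 knockout array per treatment, assumed to vary like the other groups. The cause was not tested beyond the smaller number of arrays in these fits.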
